A study of Mus musculus with 30 samples.

Results

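The Wnt pathway was followed through 10 genes in the mouse ovary. They are the ligands Wnt4 and Wnt5a, the agonist Rspo1, the receptors Fzd1 and Fzd4, the co-receptor Lrp6, the signal carrier Ctnnb1, the feedback gene Axin2 and the inhibitors Sfrp1 and Sfrp2. They were taken by gene name, and all 10 of 10 were found among the 50600 genes of the deposited table. The data set holds 30 ovaries, the left and the right one of each of 15 female C57BL/6 mice. Of these, 7 mice received 3% dextran sulfate sodium (DSS) in drinking water for 7 days while sexually immature, and 8 were littermate controls. DSS is an agent that damages the gut epithelium of mice, and the ovaries were taken after sexual maturity. The labels name no mutant allele and no other agent in either group. All 10 genes had a mean of at least 5 and were tested, among 14646 genes in all.

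Wnt ligands are secreted proteins that bind Frizzled receptors and the co-receptors Lrp5 and Lrp6. In the canonical branch this binding stops the destruction complex from degrading β-catenin, the product of Ctnnb1, which then enters the nucleus and acts with factors of the Tcf and Lef family. R-spondins such as Rspo1 raise the response by keeping Frizzled receptors at the cell surface. In the mouse, Wnt4, Rspo1 and β-catenin are known for their part in turning the fetal gonad into an ovary, and Wnt4 and Fzd4 for later parts in follicle growth and the corpus luteum.

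Expression was measured by CEL-Seq, which counts tags from the 3′ ends of transcripts. Every level below is in normalized counts, which are reads divided by 1 size factor per library, with no scaling by gene length. Levels of different genes were not compared. The whole reads recovered from the values came to between 3095386 and 8564770 per ovary, with a median of 4305814. Granulosa, theca, luteal, oocyte, endothelial and surface epithelial markers were detected, among them Foxl2 at 152.0 ± 15.29 and Gdf9 at 279.0 ± 56.0 (SD, n = 15 mice). Insl3, a theca marker, was listed at 0 in all 30 libraries. It overlaps the protein-coding gene Jak3 on its own strand, so this 0 is uncertain and need not mean absent RNA. A pair of features varied between libraries. The oviduct gene Ovgp1, which encodes the secreted oviductal glycoprotein, ranged from 110.2 to 66715.9 between ovaries. The summed level of 8 keratinised-epithelium markers averaged 1915.8 ± 2387.6 in left and 265.3 ± 247.4 in right ovaries, and was higher on the left in 15 of 15 mice. Where this RNA came from was not tested. In whole ovaries, fewer cells of a type cannot be told apart from less RNA per cell.

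The promoters of Fzd1 and Ctnnb1 are printed because these were the 2 of the 10 genes whose level differed between the left and the right ovary. The sequences are those of RefSeq on GRCm38.p6, from 250 bases before to 50 bases after a RefSeq start site. For the windows shown, this site is not the gene start of the deposited table: that of Fzd1 lies 181 bases upstream of the gene start given below, and that of Ctnnb1 4184 bases downstream. They were available for 7 of the 10 genes (8 promoters, of which 2 for Ctnnb1, the upstream one being shown), and Wnt5a, Lrp6 and Sfrp1 are named only. Capitals mark 2 motifs searched on both strands, CTTTGA (reverse TCAAAG), the core recognised by Tcf and Lef factors, and CCGCCC (reverse GGGCGG), a GC box. CTTTGA was present in 16% of 32851 mouse promoters of this length and in 1 of 8 promoters of these genes, that of Fzd1. CCGCCC was present in 35.7% of all promoters and in 5 of the 8. These 5 belong to Wnt4, Fzd4, Axin2 and Ctnnb1, whose 2 windows overlap and share matches. They had 70.0% to 84.3% G and C, against a median of 52.7% over all promoters. The 35.7% is thus not the share among promoters of like G and C. A match is a run of letters and not a measured binding site.
Fzd1 promoter, chr5:4758167-4758466, minus strand: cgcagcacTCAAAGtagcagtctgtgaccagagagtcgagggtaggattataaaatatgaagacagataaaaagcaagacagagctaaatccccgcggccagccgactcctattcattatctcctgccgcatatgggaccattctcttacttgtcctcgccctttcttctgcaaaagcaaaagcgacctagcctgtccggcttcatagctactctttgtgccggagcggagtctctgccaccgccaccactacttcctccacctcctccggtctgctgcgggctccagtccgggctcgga
Ctnnb1 promoter, chr9:120933150-120933449, plus strand: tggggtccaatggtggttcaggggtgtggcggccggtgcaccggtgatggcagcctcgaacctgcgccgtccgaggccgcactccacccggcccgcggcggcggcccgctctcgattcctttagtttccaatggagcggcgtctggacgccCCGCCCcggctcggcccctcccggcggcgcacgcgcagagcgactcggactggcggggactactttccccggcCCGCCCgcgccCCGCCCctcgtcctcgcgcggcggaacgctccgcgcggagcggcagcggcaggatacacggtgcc
The Fzd1 window had 54.0% G and C and 1 CTTTGA match, on the opposite strand and starting 242 bases before the RefSeq start site. The Ctnnb1 window had 75.3% G and C and 3 CCGCCC matches, starting 99, 26 and 15 bases before its RefSeq start site. The median over all promoters was 52.7% G and C.

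Wnt4 (ENSMUSG00000036856.4, chromosome 4, 137277489 to 137300026, plus strand, GRCm38 as are all gene positions here) encodes a secreted Wnt made by granulosa cells in mice. Mouse means of Wnt4 ran from 317.7 through a median of 346.5 to 487.1 in DSS mice and from 270.9 through 442.7 to 538.2 in control mice. The control range took in all 7 DSS mice. Wnt4 averaged 381.3 ± 70.3 in DSS mice, against 428.9 ± 86.6 in control mice (SD, n = 7 and 8), a log2 difference of -0.16 ± 0.13 (SE; 95% interval -0.44 to 0.12; limma adjusted p = 0.786). Wnt5a (ENSMUSG00000021994.14, chromosome 14, 28504750 to 28527747, plus strand) encodes a ligand that in mice acts mostly through β-catenin-independent signalling. It lay between 81.5 and 137.8, with a median of 100.2, in DSS mice and between 80.3 and 131.4, with a median of 99.2, in control mice. The groups overlapped over almost their whole range, with means of 103.3 ± 18.7 in DSS mice and 103.0 ± 16.4 in control mice. The log2 difference was 0.002 ± 0.11 (SE; 95% interval -0.235 to 0.24; limma adjusted p = 0.998).

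Rspo1 (ENSMUSG00000028871.7, chromosome 4, 124986430 to 125009399, plus strand) varied most between libraries, by a coefficient of variation of 53.2% against 17.3% from counting reads alone. Its mouse means ran from 32.6 through 38.7 to 82.5 in DSS mice and from 17.8 through 34.9 to 72.7 in control mice. The highest value of each group belonged to mouse DSS_11.2 and mouse control_10.5, the 2 mice that also held the ovaries with the most Ovgp1. Rspo1 averaged 44.9 ± 17.6 in DSS mice, against 38.2 ± 16.7 in control mice, a log2 difference of 0.26 ± 0.24 (SE; 95% interval -0.25 to 0.77; limma adjusted p = 0.811). In right ovaries alone the log2 difference was 0.007, against 0.42 in left ovaries alone, and without the 7 ovaries above 5000 of Ovgp1, which leaves 6 DSS and 8 control mice, it was 0.088.

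Among the receptors, Fzd1 (ENSMUSG00000044674.6, chromosome 5, 4753539 to 4758035, minus strand) and Fzd4 (ENSMUSG00000049791.4, chromosome 7, 89404355 to 89413434, plus strand) encode Frizzled proteins that bind Wnt ligands. Fzd1 had mouse means from 49.3 through 59.5 to 72.8 in DSS mice and from 56.1 through 67.4 to 98.7 in control mice. DSS mice held the lowest value and control mice the highest, and 5 of 7 DSS mice lay inside the control range. Fzd1 averaged 61.6 ± 8.3 in DSS mice, against 71.1 ± 13.1 in the control mice. Its log2 difference of -0.20 ± 0.11 ranked first by p among these genes but did not pass (SE; 95% interval -0.43 to 0.035; limma adjusted p = 0.674). Fzd4 averaged 132.4 ± 12.6 in DSS mice and 130.4 ± 21.7 in control mice, with ranges of 117.8 to 156.0 and 94.3 to 170.4. All DSS mice were thus within the control range (log2 difference 0.03 ± 0.10; 95% interval -0.17 to 0.24; limma adjusted p = 0.949).

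Lrp6 (ENSMUSG00000030201.15, chromosome 6, 134446176 to 134566965, minus strand) encodes the co-receptor that is phosphorylated when a Wnt binds. Of the 10 genes it was the steadiest between ovaries, with a coefficient of variation of 9.1%. Its mouse means ran from 444.2 through 461.4 to 475.6 in DSS mice and from 435.9 through 487.6 to 535.5 in control mice. The DSS values formed a narrow band inside the control range, with means of 461.4 ± 12.4 in DSS mice and 484.6 ± 34.7 in control mice. All 7 DSS mice lay below the control median, and 0 of 8 control mice lay within the DSS range. The share of all genes with such counts was not computed. The log2 difference was -0.068 ± 0.048 (SE; 95% interval -0.17 to 0.03; limma adjusted p = 0.743).

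Ctnnb1 (ENSMUSG00000006932.17, chromosome 9, 120929216 to 120960807, plus strand) rested on the most reads, 3904 to 11034 per ovary. Its mouse means ran from 5649.8 through 6075.7 to 6655.1 in DSS mice and from 5648.0 through 6226.4 to 6865.0 in control mice. Averages were 6142.3 ± 355.3 in DSS mice and 6216.6 ± 447.1 in control mice, and the log2 difference was -0.016 ± 0.053 (SE; 95% interval -0.13 to 0.10; limma adjusted p = 0.957). Axin2 (ENSMUSG00000000142.15, chromosome 11, 108920349 to 108951083, plus strand) encodes a scaffold of the destruction complex and is a widely used target gene of β-catenin. It rested on 2 to 18 reads per ovary, and counting reads alone gives a coefficient of variation of 38.6%, against the 41.1% seen. Axin2 ran from 6.52 through 8.12 to 15.7 in DSS mice and from 5.21 through 7.45 to 10.34 in control mice, with the highest value again in mouse DSS_11.2. At this depth the interval of its log2 difference was wide, from -0.25 to 0.56 around 0.15 (limma adjusted p = 0.863; means of 8.91 ± 3.16 in DSS mice and 7.76 ± 1.70 in control mice).

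Sfrp1 (ENSMUSG00000031548.7, chromosome 8, 23411502 to 23449932, plus strand) and Sfrp2 (ENSMUSG00000027996.13, chromosome 3, 83766321 to 83774616, plus strand) encode secreted proteins that bind Wnt ligands and can keep them from their receptors. Sfrp1 ran from 859.2 through 1019.4 to 1159.6 in DSS mice and from 768.0 through 952.8 to 1622.3 in control mice. A single mouse, control_15.3, set the upper end with 1645.8 in its left and 1598.9 in its right ovary, so that control mice spread over a wider range than DSS mice. Means were 995.2 ± 97.6 in DSS mice, against 1011.0 ± 272.6 in control mice (log2 difference 0.01 ± 0.12; 95% interval -0.25 to 0.27; limma adjusted p = 0.988). Sfrp2 averaged 19.4 ± 5.2 in DSS mice and 21.0 ± 9.5 in control mice, from 13.21 to 24.99 and from 10.64 to 36.32. Its difference was not distinguishable from this spread (log2 -0.03 ± 0.25; 95% interval -0.55 to 0.50; limma adjusted p = 0.983).

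**Figure D1:**
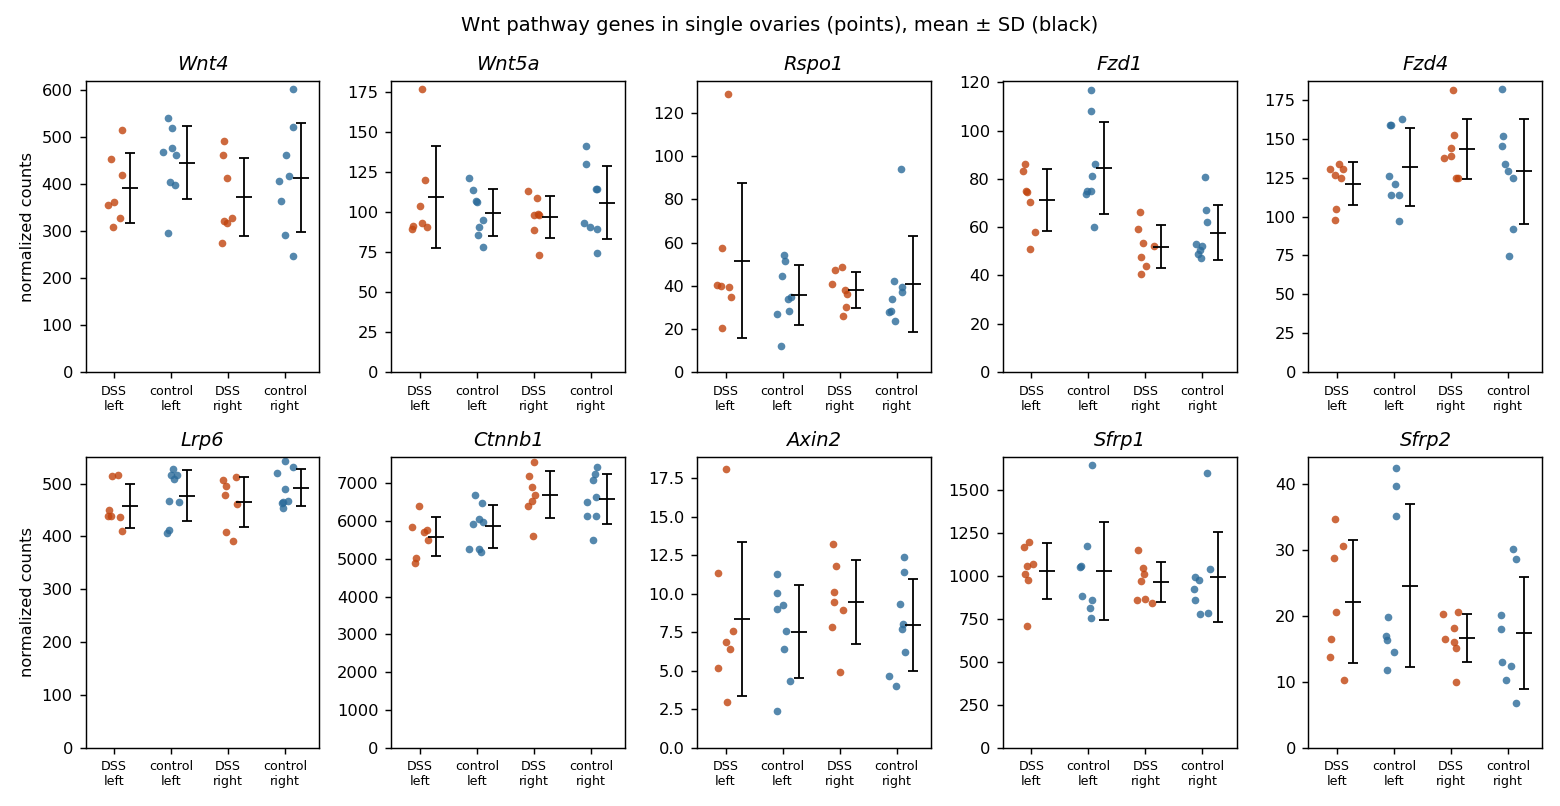
Normalized counts of the 10 Wnt pathway genes (vertical axes, linear from 0) in single ovaries of DSS (orange) and control (blue) mice, by side, with black bars for mean ± SD (n = 7 DSS and 8 control mice per side). Fzd1 points sit higher in left ovaries, with means of 78.3 in left and 55.1 in right ovaries over both treatments, and Ctnnb1 points sit lower in left ovaries.

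In all, 0 of the 10 genes passed the test of DSS against control, and 0 had an unadjusted p under 0.05. Over all 14646 genes tested, 0 passed (percent called 0) and 1169 had an unadjusted p under 0.05 (7.98%). The count tests called 6 genes with edgeR (0.041%) and 52 with DESeq2 (0.355%), and 0 of the 10 genes with either. Of the 10 log2 differences, 5 were above and 5 below 0, with a median of -0.007. The intervals bound any change of Ctnnb1 and Lrp6 closely, whereas those of Wnt4, Rspo1, Fzd1, Axin2 and Sfrp2 reach beyond 0.4 on the log2 scale in at least 1 direction.

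**Figure D2:**
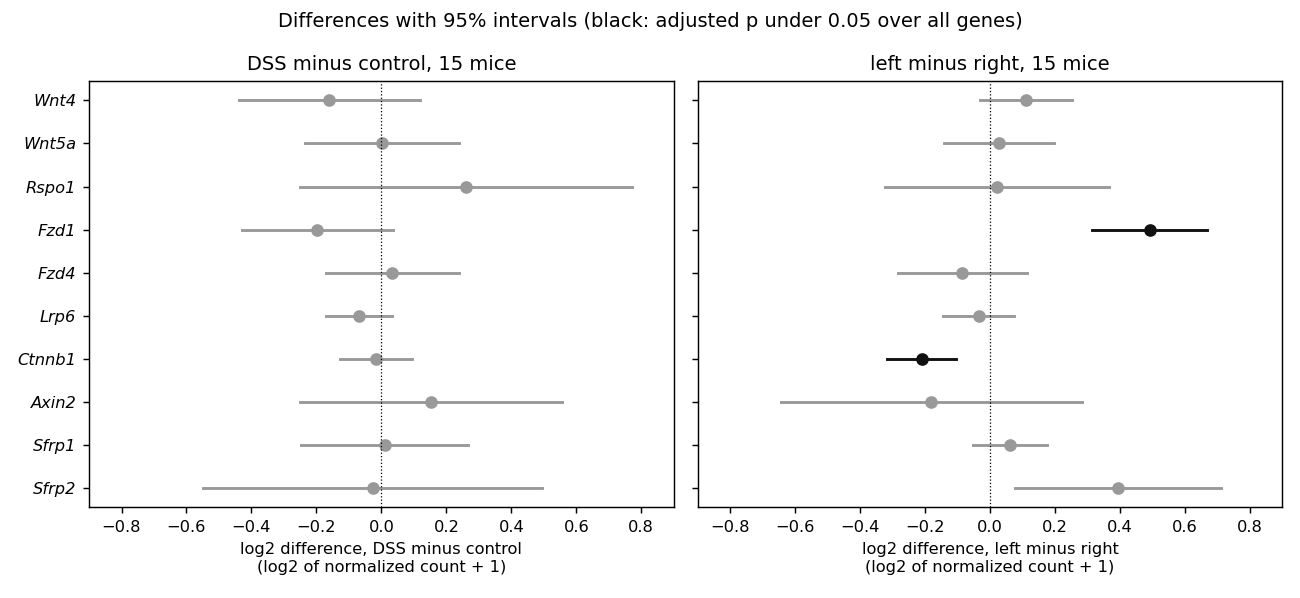
Log2 differences (horizontal axes) of the 10 genes for DSS minus control mice and for left minus right ovaries, with 95% intervals and black marks for adjusted p under 0.05. All 10 intervals of DSS minus control span 0, while Fzd1 at 0.49 and Ctnnb1 at -0.21 lie clear of 0 for left minus right.

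The left and the right ovary of the same mouse were compared next. Fzd1 was higher in left ovaries and Ctnnb1 was lower in left ovaries, so that a receptor and the signal carrier differed between sides in opposite directions. Fzd1 ran from 50.9 through a median of 74.98 to 116.7 in left ovaries and from 40.7 through 52.3 to 80.7 in right ovaries. The ranges overlapped between mice, but within a mouse the left ovary had more Fzd1 in 15 of 15 mice. Such a pattern in 15 of 15 mice was seen for 0.362% of the genes tested. Means were 78.3 ± 17.2 in left and 55.1 ± 10.401 in right ovaries (SD, n = 15), a log2 difference of 0.49 ± 0.08 or 1.41-fold (SE; 95% interval 0.31 to 0.67; limma with mouse as block, adjusted p = 0.000914).

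The pairs of Fzd1 values show the spread of this difference. The widest gap was in mouse control_10.5, with 108.1 in the left and 49.0 in the right ovary. The narrowest were in mouse DSS_11.2, with 70.4 in the left and 66.2 in the right ovary, and mouse DSS_15.1, with 50.9 in the left and 47.7 in the right ovary. Both treatments showed the direction: Fzd1 averaged 71.2 ± 12.8 in left and 52.0 ± 8.9 in right ovaries of DSS mice, and 84.5 ± 18.9 in left and 57.77 ± 11.45 in right ovaries of control mice.

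Ctnnb1 ran from 4901.1 through 5762.1 to 6692.6 in left ovaries and from 5493.2 through 6630.9 to 7566.5 in right ovaries. The right ovary had more in 12 of 15 mice, a count reached by 8.92% of all genes, and the exceptions were mouse DSS_10.4 and mice control_10.6 and control_15.4. Means were 5730.3 ± 543.5 in left and 6633.6 ± 625.2 in right ovaries, a log2 difference of -0.21 ± 0.05 or 0.864-fold (SE; 95% interval -0.32 to -0.10; limma with mouse as block, adjusted p = 0.0116). Ctnnb1 overlaps Mir7090 on its own strand and Ulk4 and 4930593C16Rik on the other, so its count is uncertain where the strand used in counting is not given in the sources used here. Wnt5a, Rspo1, Axin2 and Sfrp2 each overlap an antisense gene (Gm2670, Gm12930, Gm11670 and Gm26771) and are uncertain in the same way, whereas Wnt4, Fzd1, Fzd4, Lrp6 and Sfrp1 overlap no annotated gene.

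Sfrp2 averaged 23.5 ± 10.7 in left and 17.1 ± 6.5 in right ovaries and was higher on the left in 11 of 15 mice, a count reached by 15.2% of all genes, but did not pass (log2 0.39 ± 0.15; limma adjusted p = 0.109). Without mouse DSS_16.3, whose values were 10.2 in the left and 20.3 in the right ovary, it passed (log2 0.49; adjusted p = 0.0324). The other 7 genes had log2 differences between -0.18 and 0.11, none of which passed. Wnt4 averaged 419.7 ± 78.3 in left and 393.7 ± 100.5 in right ovaries (log2 0.11; adjusted p = 0.343). Sfrp1 averaged 1027.3 ± 229.0 in left and 980.0 ± 200.8 in right ovaries (log2 0.061; adjusted p = 0.558), and Fzd4 averaged 126.8 ± 20.7 in left and 135.9 ± 28.1 in right ovaries (log2 -0.085; adjusted p = 0.65). In each of these 3 genes the ranges of the sides overlapped. Lrp6 averaged 468.1 ± 44.6 in left and 479.4 ± 42.3 in right ovaries (log2 95% interval -0.145 to 0.075), and Wnt5a averaged 104.3 ± 23.8 in left and 101.9 ± 18.9 in right ovaries (-0.141 to 0.197). Rspo1 averaged 43.2 ± 26.7 in left and 39.5 ± 16.8 in right ovaries (-0.322 to 0.365), and Axin2 averaged 7.92 ± 3.93 in left and 8.67 ± 2.87 in right ovaries (-0.644 to 0.282). For these 4 genes the adjusted p lay between 0.682 and 0.958, and the intervals of Rspo1 and Axin2 leave the most room for a difference.

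**Figure D3:**
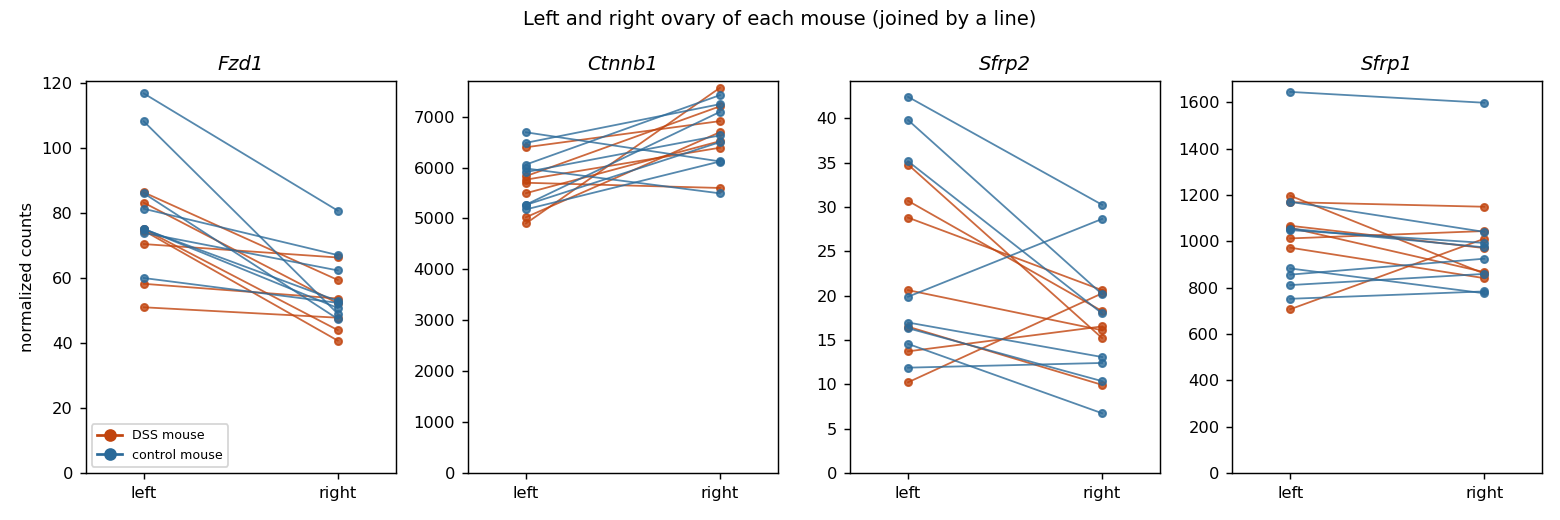
Normalized counts (vertical axes, linear from 0) of Fzd1, Ctnnb1, Sfrp2 and Sfrp1 in the left and right ovary of each of 15 mice, joined by a line (orange DSS, blue control). The Fzd1 line falls towards the right ovary in 15 of 15 mice and the Ctnnb1 line climbs in 12 of 15, while Sfrp1 of mouse control_15.3 stands above the others on both sides.

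The 2 of 10 genes that passed between sides, 1 higher and 1 lower in left ovaries, stand against 1488 of 14646 genes overall (10.2%), of which 668 were higher (4.56%) and 820 lower (5.6%). At an unadjusted p under 0.05 there were 3 of the 10 and 3464 genes in all (23.7%). With DSS mice alone neither gene passed (Fzd1 log2 0.44, adjusted p = 0.13; Ctnnb1 log2 -0.26, adjusted p = 0.137), and with control mice alone only Fzd1 did (log2 0.53, adjusted p = 0.022; Ctnnb1 log2 -0.17, adjusted p = 0.187). Without the 6 mice that had an ovary above 5000 of Ovgp1, Fzd1 passed (log2 0.52, adjusted p = 0.00678) and Ctnnb1 did not (log2 -0.20, adjusted p = 0.0704). A number in the sample titles, whose meaning the labels do not give, is odd for left and even for right ovaries, so whatever it marks cannot be told apart from the side. Of the keratinised-epithelium markers, 7 of 7 tested were higher in left ovaries and 6 of them passed. Their summed normalized counts ran from 133.2 to 6577.5 in left and from 46.8 to 898.5 in right ovaries, over all 8 markers. None of the 8 markers was at 0 everywhere. With log2 Krt5, the gene of a basal keratin, as a covariate, neither gene passed (Fzd1 log2 0.56, adjusted p = 0.593; Ctnnb1 log2 -0.12, adjusted p = 0.899), and over all genes 4 were called. Side and keratin level cannot be told apart in these 15 mice.

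Whether DSS changed the difference between sides was tested as an interaction. Ovgp1 was itself uneven here. It averaged 14959.8 ± 24562.2 in left and 2496.5 ± 3871.2 in right ovaries of DSS mice (SD). In control mice it averaged 245.5 ± 115.4 in left and 9264.3 ± 14698.6 in right ovaries. The interactions of 10 of 10 oviduct markers were above 0 and those of 9 of 9 granulosa markers below 0, but none passed. The main fit had no Ovgp1 term. None of the 10 genes passed with limma, nor with edgeR, against 0 of 14646 genes with limma (percent called 0; 1248 genes, 8.52%, at an unadjusted p under 0.05) and 1 with edgeR (0.00683%). At an unadjusted p under 0.05 there were 0 of the 10. The smallest p was that of Fzd4, whose left minus right difference was 0.29 lower in DSS than in control mice on the log2 scale (-0.29 ± 0.18 SE; 95% interval -0.67 to 0.09; limma adjusted p = 0.67). Fzd4 averaged 121.2 ± 14.05 in left and 143.6 ± 19.4 in right ovaries of DSS mice, and 131.6 ± 25.1 in left and 129.1 ± 33.8 in right ovaries of control mice. The interaction of Fzd1 was -0.09 ± 0.17 (95% interval -0.45 to 0.27; adjusted p = 0.921) and that of Ctnnb1 -0.093 ± 0.10 (95% interval -0.31 to 0.12; adjusted p = 0.832).

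The level of Ovgp1 was then used to ask which of the genes followed oviduct RNA from ovary to ovary within a mouse. The slope is the log2 change of a gene per doubling of Ovgp1, with mouse and side in the fit. None of the 10 genes had a slope that passed, and 0 had an unadjusted p under 0.05, against 780 of 14645 genes (5.33%; 609 rising, 4.16%, and 171 falling, 1.17%) and 2645 at the unadjusted threshold (18.1%). edgeR called 0 of the 10 genes, against 759 rising and 169 falling genes in all (6.34%). The slope was largest for Rspo1 at 0.069 ± 0.039 (SE; 95% interval -0.01 to 0.15; limma adjusted p = 0.38), Axin2 at -0.072 ± 0.055 (adjusted p = 0.55) and Wnt5a at 0.037 ± 0.020 (adjusted p = 0.339). The remaining slopes lay between -0.034 for Fzd1 and 0.017 for Sfrp1.

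The ovary with the more Ovgp1 also had the more Wnt5a in 10 of 15 mice, the more Sfrp1 in 10 of 15 and the more Rspo1 in 7 of 15. Over the 10 genes this count lay between 6 (Axin2) and 10 of 15. The share of all genes with such counts was not computed. The left ovary of mouse DSS_11.2, with 66715.9 of Ovgp1, had the highest Rspo1, Wnt5a and Axin2 of all ovaries, at 129.0, 177.0 and 18.1, against 36.1, 98.6 and 13.3 in its right ovary with 973.1 of Ovgp1. The right ovary of mouse control_10.5, with 41925.3 of Ovgp1, had 93.9 of Rspo1, against 51.4 in the left ovary with 335.2 of Ovgp1. The left ovary of mouse DSS_10.4, with 25161.4 of Ovgp1, had 57.3 of Rspo1, against 40.7 in the right ovary with 646.5 of Ovgp1. The 3 ovaries with the most Ovgp1 were thus the 3 with the most Rspo1. The next in Ovgp1, the right ovary of mouse control_13.4, had 18627.7 of Ovgp1, 27.9 of Rspo1 and 27.88 of Adipoq. The left ovary of that mouse had 264.1 of Ovgp1, 26.9 of Rspo1 and 24.62 of Adipoq. Without mouse DSS_11.2 the slope of Rspo1 was 0.016 and that of Wnt5a 0.014. With no mouse term, both passed (Rspo1 0.11, adjusted p = 0.0374; Wnt5a 0.051, adjusted p = 0.0357).

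**Figure D4:**
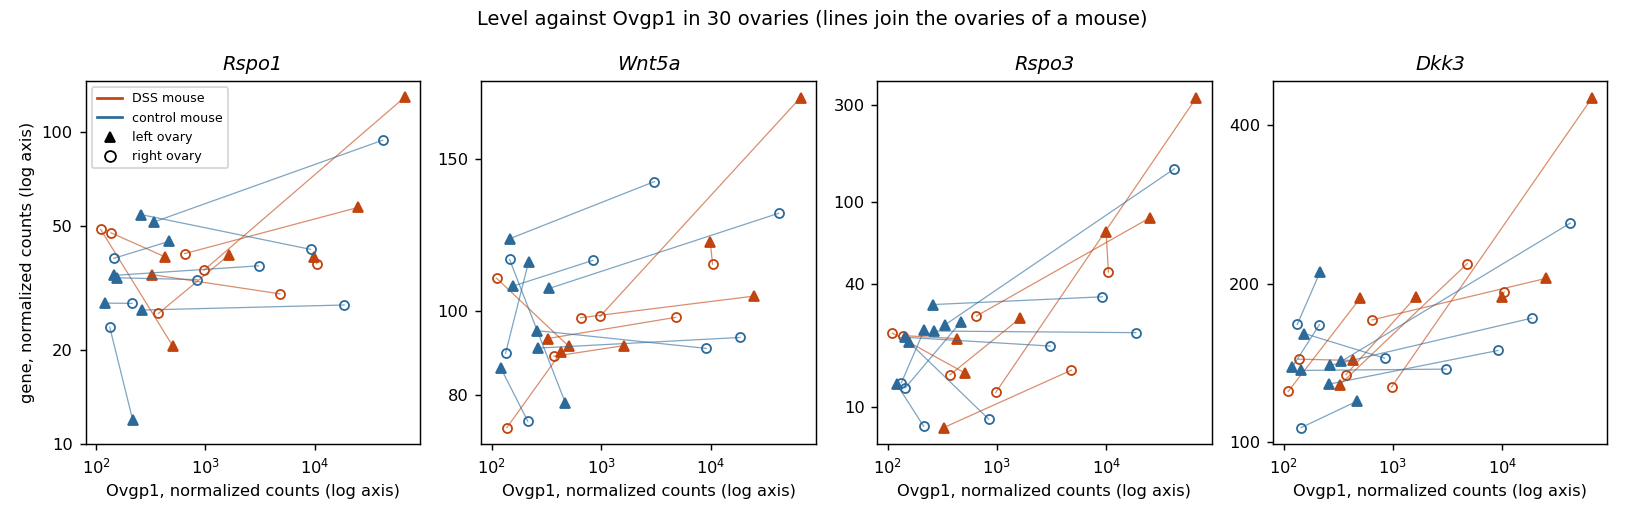
Level of Rspo1, Wnt5a, Rspo3 and Dkk3 (vertical log axes, normalized counts) against Ovgp1 (horizontal log axes, normalized counts) in 30 ovaries, with triangles for left and circles for right ovaries and lines joining the ovaries of a mouse (orange DSS, blue control). The left ovary of mouse DSS_11.2, at 66715.9 of Ovgp1, is the highest point in each of the 4 panels.

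The other genes of the pathway came from 8 lists with 87 different genes, of which 64 were expressed above the filter. The lists were other Wnt ligands (4 of 17 tested), R-spondins with their Lgr receptors and E3 ligases (7 of 8), other receptors and co-receptors (12 of 13), ligand secretion (2 of 3), other secreted inhibitors and Kremen (6 of 11), Dishevelled and the destruction complex (13 of 14), nuclear partners (14 of 14) and target genes (11 of 14, shared in part with other lists). Between DSS and control mice, 0 of 64 passed, with 32 log2 differences above and 32 below 0 and a median of 0, and 3 had an unadjusted p under 0.05. Apc, a scaffold of the destruction complex, averaged 108.6 ± 10.1 in DSS mice, against 91.3 ± 16.1 in control mice (log2 0.26; limma adjusted p = 0.551). Tcf7l1, a mostly repressive partner of β-catenin, averaged 131.3 ± 17.2 in DSS mice, against 155.4 ± 21.5 in control mice (log2 -0.24; adjusted p = 0.565), and Tle1, a co-repressor, averaged 112.5 ± 12.1 in DSS mice, against 96.9 ± 13.9 in control mice (log2 0.22; adjusted p = 0.565). The smallest p of the other lists did not pass either. They were those of Wnt5b (log2 -0.36), Rspo3 (0.56), Ror2 (-0.15), Porcn (-0.13), Dkk3 (0.25) and Myc (-0.28), with adjusted p between 0.662 and 0.864.

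Between sides, 7 of the 64 passed (10.9%, near the 10.2% of all genes), 2 higher and 5 lower in left ovaries, and the median log2 difference was -0.009. In the destruction complex list 2 of 13 genes passed, both lower in left ovaries, while by sign alone 10 of the 13 differences were below and 3 above 0. Its Gsk3a, a kinase that marks β-catenin for degradation, averaged 357.8 ± 35.3 in left and 506.9 ± 44.2 in right ovaries and was higher on the right in 15 of 15 mice, as were 0.724% of all genes (log2 -0.50 ± 0.05; limma adjusted p = 1.6e-06). Csnk1d, a casein kinase, averaged 436.1 ± 30.4 in left and 501.1 ± 30.04 in right ovaries (log2 -0.20; adjusted p = 0.00288). Of the nuclear partners 2 of 14 passed, both lower in left ovaries, Tcf7l1 with 124.6 ± 25.1 in left and 163.7 ± 31.0 in right ovaries (log2 -0.40; adjusted p = 0.00281) and Tle1 with 91.7 ± 18.1 in left and 116.7 ± 22.9 in right ovaries (log2 -0.35; adjusted p = 0.0158).

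Of the other receptors, 1 of 12 passed as lower and 1 of 12 as higher in left ovaries, against 5.6% and 4.56% of all genes, and by sign alone 6 differences were below and 6 above 0. Fzd8 averaged 72.6 ± 12.2 in left and 94.4 ± 13.8 in right ovaries (log2 -0.38; limma adjusted p = 0.00277), the reverse of Fzd1. Ptk7, a pseudokinase co-receptor, averaged 45.0 ± 9.9 in left and 31.9 ± 6.8 in right ovaries, higher on the left in 14 of 15 mice, as were 1.58% of all genes (log2 0.48; adjusted p = 0.00308). Cd44, an adhesion receptor listed as a target gene, averaged 178.9 ± 46.8 in left and 144.4 ± 27.8 in right ovaries (log2 0.29; adjusted p = 0.0342), a call that ended when any of 8 mice was left out (DSS_10.3, DSS_16.3, control_10.6, control_11.4, control_13.4, control_13.5, control_15.3 or control_16.9; adjusted p from 0.051 to 0.0676). With DSS mice alone Gsk3a alone of these 7 genes passed (adjusted p of the others from 0.0893 to 0.35), and with control mice alone Gsk3a and Csnk1d did (the others from 0.0559 to 0.106). Without the mice with an ovary above 5000 of Ovgp1, Tle1 and Cd44 did not pass (adjusted p = 0.113 and 0.0724), and Cd44 did not with no filter (0.0643) or no replicate block (0.0817). DESeq2 gave Ptk7 no adjusted p. With the Krt5 term, none of the 7 passed (adjusted p from 0.161 to 0.965). Gsk3a, Csnk1d, Tcf7l1, Tle1, Ptk7 and Cd44 overlap other annotated genes and are uncertain for that reason.

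**Figure D5:**
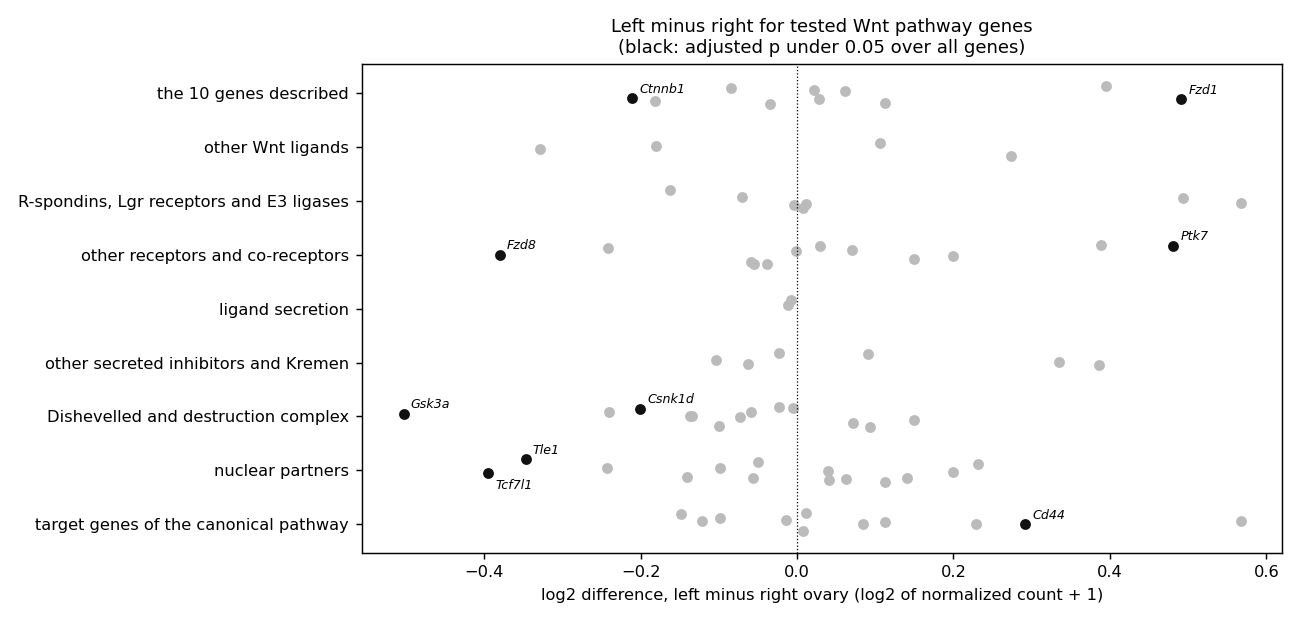
Log2 difference of left minus right ovaries (horizontal axis) for the 10 genes and the tested genes of 8 pathway lists (rows), each point a gene and black where the adjusted p was under 0.05. Among the black points Fzd1, Ptk7 and Cd44 lie right of 0, and Gsk3a at -0.50 lies farthest left.

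With Ovgp1, 3 of the 64 genes passed as rising and 0 as falling (4.69%, against 5.33% of all genes). By sign alone 32 slopes were above and 32 below 0. Dkk3, a secreted protein of the Dickkopf family, had a slope of 0.12 ± 0.02 (limma adjusted p = 0.00154) and moved with Ovgp1 in 13 of 15 mice. The share of all genes with such a count was not computed. Dkk3 still passed without any 1 mouse, but not in 1 of 6 other settings, over which its slope ranged from 0.064 to 0.128. Rspo3, another R-spondin, had a slope of 0.27 ± 0.06 (adjusted p = 0.00785) and ranged from 7.93 to 325.2, with its highest value in the left ovary of mouse DSS_11.2, whose right ovary had 11.8. Its slope was 0.18 without that mouse (adjusted p = 0.0976) and 0.22 without mouse control_10.5 (adjusted p = 0.0747). Ccnd1, the gene of cyclin D1, had a slope of 0.13 ± 0.03 (adjusted p = 0.0218). This slope was 0.128 without mouse DSS_10.4 (adjusted p = 0.0631), 0.093 without mouse DSS_11.2 (0.233) and 0.12 without mouse control_10.5 (0.118). Rspo3 and Ccnd1 each also did not pass in 1 of 6 other settings. Beside these slopes, 9 of 9 oviduct markers tested, 5 of 7 smooth-muscle and pericyte markers and 3 of 10 surface-epithelium markers passed as rising. As falling, 5 of 9 granulosa and 1 of 5 theca and interstitial markers passed. Of all genes, 4.16% passed as rising and 1.17% as falling. By sign alone, 6 of 7 smooth-muscle, 7 of 10 surface-epithelium and 7 of 7 adipose slopes were above 0. Below 0 were 9 of 9 granulosa, 8 of 8 oocyte, 5 of 5 theca and 7 of 7 keratinised-epithelium slopes. No adipose, oocyte or keratinised-epithelium marker passed. Their part in the slopes of Dkk3, Rspo3 and Ccnd1 was not tested. Rspo3 overlaps Gm20276 on its own strand and Gm48159 on the other, and Ccnd1 overlaps LTO1 on the other strand. Both are uncertain for that reason, whereas Dkk3 overlaps no annotated gene.

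Finally, the genes with the most similar pattern were looked up for each of the 10 genes by Spearman's rho of log2 values over the 30 ovaries, as a description over libraries that share mice and depth. Wnt4 was closest to Abcb1b (rho 0.82) and Arsb (0.80), Sfrp1 to Mrgprf (0.73) and Matn2 (0.72), and Ctnnb1 to Knop1 (0.75) and Sod1 (0.74). Rspo1 was closest to C3, the gene of a complement factor (0.76), and to 1700029J07Rik (0.75). Fzd1 was closest to Pld3 (0.73) and 2310057J18Rik (0.71), Fzd4 to Lipg (0.71) and Hsd17b7 (0.68), and Wnt5a to Spsb2 (0.72) and Zbtb7b (0.69). Lrp6 was closest to Adamts2 and Gfer (0.68 each), Sfrp2 to Pqlc3 (0.64) and Tor3a (0.62), and Axin2, the gene with the fewest reads, to Gm37090 (0.60) and Bptf (0.59). Each pair was taken from the top of 14645 rho values, and how high the top would be by chance was not computed. None of the 10 genes was among the closest pair of another. Wnt4 and Sfrp1 kept their level between the ovaries of a mouse best relative to their spread between mice. Their within-mouse SDs were 0.20 and 0.16, against 0.29 and 0.26 between mouse means on the log2 scale. The within-mouse SD was larger for Lrp6 (0.145 against 0.087), Axin2 (0.61 against 0.37), Fzd4 (0.287 against 0.198) and Ctnnb1 (0.145 against 0.092). For Wnt5a (0.229 against 0.22) and Rspo1 (0.507 against 0.503) both SDs were nearly equal. The within-mouse SD is that of single ovaries and the other that of mouse means. The first is therefore the larger for a gene that does not differ between mice.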

How the data were processed

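Per the labels' protocols, total RNA of single ovaries was extracted with TRIzol and made into CEL-Seq libraries with 3 primers per sample. The authors deposited 1 table of normalized counts, a signal per gene and ovary in which read counts were divided by 1 size factor per library, per the file headers and the values. TopHat, HTSeq and DESeq2 with GRCm38.p5 were named, per the submitters' processing notes; versions, strand setting and handling of molecular identifiers are not given in the sources used here. All columns matched a sample by title (0 unmapped).

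From these values, limma 3.58.1 (R 4.3.3, trend, two-sided) was run on log2(value + 1) for 14646 genes with a mean of at least 5, with Benjamini-Hochberg adjustment over all of them and a threshold of 0.05. Fold changes on this scale understate changes of low genes. DSS was compared with control on mouse means (7 against 8), and sides with mouse as a block, since the labels give both ovaries of an animal; the deviations of the ovaries of a mouse correlated between -0.273 and 0.372. The interaction was tested on left minus right differences, and the Ovgp1 slope with mouse and side as terms. Whole reads, recovered for 99.99% to 100% of values above 0 within 0.0051 normalized counts, were tested with edgeR 4.0.16 and DESeq2 1.42.0 as alternatives. All fits were first tested on simulated data.

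The 10 genes and all lists were chosen with earlier results of these data known. Named besides them are pathway genes that passed, at most 4 per list and direction; where none passed in a list, up to 2 of the smallest p were eligible, of which those for DSS against control are given (1 per list, and those with an unadjusted p under 0.05). Other settings were a pseudocount of 5 and TMM scaling, for DSS against control also a pseudocount of 0.5 and quantile scaling, no filter (DSS against control and sides), single sides, Ovgp1 and Krt5 as covariates, the number before the point in mouse names (of unstated meaning) as a block, and each mouse left out in turn.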

Additional observations from a re-analysis of the deposited data

Results flagged for a closer look

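Within each treatment and side, and for the mouse means, a value was singled out where its gap to its nearest neighbour was too large a share of the group's range by Dixon's 95% limit. Of 60 groups looked at, 8 held such a value. Chance gives about 1 in 20 for a group of normally distributed values. The mouse means are made of the same ovaries, so the 60 groups are not independent. An excess over chance was not tested. Mouse DSS_11.2 stood apart 4 times, with 177 of Wnt5a in its left ovary (next value 120.2), 129 of Rspo1 in its left ovary (57.3), 82.53 of Rspo1 as a mouse mean (49.0) and 15.69 of Axin2 as a mouse mean (9.72). The left ovary of that mouse also held the highest Ovgp1, 66715.9. Mouse control_10.5 stood apart with 93.94 of Rspo1 in its right ovary (next value 42.0), which held 41925.3 of Ovgp1. Mouse control_15.3 stood apart with Sfrp1 in both ovaries, 1646 in the left (1171.0) and 1599 in the right (1041.1), and hence in its mean of 1622 (1106.1); its Ovgp1 was low, at 216.2 in the left and 133.2 in the right ovary.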

How the results depend on the processing

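Fzd1 and Ctnnb1 kept their side difference past the threshold with a pseudocount of 5, no filter, TMM scaling, edgeR, DESeq2, no replicate block, an Ovgp1 covariate and without any 1 mouse (Fzd1 log2 0.446 to 0.52; Ctnnb1 -0.235 to -0.181). They were lost in part in smaller subsets and with log2 Krt5 as covariate, a setting chosen after seeing the data. Depth limits Axin2 most, with 2 to 18 reads and a coefficient of variation of 41.1% against 38.6% from counting reads alone. For Sfrp2 these were 45.9% and 24.5%, and for Rspo1 53.2% and 17.3%. The counting values take each read as a separate molecule. As the handling of molecular identifiers is not given, they may be too low. DESeq2 gave no adjusted p between sides for Axin2, Sfrp2 and Ptk7. Genes at the edge of the filter and settings that leave out mice test fewer genes or samples; beyond that, the cause of the changes below was not tested.

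The count of all genes called for DSS against control, 0 in the main test, was 6 with edgeR, 52 with DESeq2, 11 in left and 1 in right ovaries alone, 10 without ovaries above 5000 of Ovgp1 and 0 to 13 with 1 mouse left out, highest without mouse DSS_15.1. With the mouse-number prefix as a replicate block it was 3, and 0 of the 10 genes were called. Between sides it was 115 in DSS mice (0 of the 10 genes), 384 in control mice (1), 733 without mice with an ovary above 5000 of Ovgp1 (1), 4 with Krt5 as covariate (0), and 1195 with no replicate block (2 of the 10 genes). The interaction count was 1 with edgeR, 1 without the mice with high Ovgp1, and 0 to 2 with 1 mouse left out, the highest without mouse DSS_11.2. The share of genes with an Ovgp1 slope that passed, 5.33%, was 11.38% with no replicate block (2 of the 10 genes). That setting takes the 2 ovaries of a mouse as independent. The share was 2.56% without mice control_10.5 and control_13.4, which had the widest Ovgp1 differences. With 1 mouse left out it was 2.03% to 6.4%, with 2.03% without mouse DSS_11.2 and 2.46% without mouse control_10.5.

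Signs turned for values that had not passed. For DSS against control, Wnt5a was -0.009 with edgeR, -0.012 with DESeq2, -0.002 as a mean of logs, -0.109 in right ovaries, -0.1 without ovaries with high Ovgp1, -0.05 with Ovgp1 as covariate and -0.078 with the prefix as a replicate block. Sfrp1 was -0.039 with edgeR, -0.041 with DESeq2, -0.017 in right ovaries and -0.008 without ovaries with high Ovgp1. Ctnnb1 was 0.008 with quantile scaling, 0.027 in right ovaries and 0.071 without high Ovgp1; Sfrp2 was 0.05 in right ovaries and 0.005 with Ovgp1 as covariate. Fzd4 was -0.104 in left ovaries, Dkk3 -0.026 and Porcn 0.084 in right ovaries, and Rspo3 -0.127 without high Ovgp1. For left against right, Wnt5a, Rspo1 and Fzd4 were -0.072, -0.172 and 0.052 in control mice; Wnt5a, Rspo1 and Lrp6 were -0.036, -0.165 and 0.027 without mice with high Ovgp1; Wnt5a and Lrp6 were -0.078 and 0.042 with Krt5. The interactions of Wnt4, Fzd1 and Axin2 were 0.026, 0.07 and 0.299 without mice with high Ovgp1. The Ovgp1 slopes of Ctnnb1, Axin2 and Sfrp1 were 0.007, 0.038 and -0.021 over means of mice, that of Sfrp1 was -0.001 with no replicate block, and those of Wnt4 and Sfrp2 were 0.007 and 0.037 without mice control_10.5 and control_13.4.

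With 1 mouse left out, the DSS differences of Wnt5a, Fzd4, Ctnnb1, Sfrp1 and Sfrp2 ranged from -0.07 to 0.055, -0.03 to 0.091, -0.036 to 0.005, -0.041 to 0.113 and -0.141 to 0.099. Side differences of Wnt5a and Rspo1 ranged from -0.03 to 0.069 and -0.106 to 0.109. Interactions of Wnt4, Lrp6, Axin2, Sfrp1 and Sfrp2 ranged from -0.142 to 0.008, -0.046 to 0.058, -0.399 to 0.028, -0.026 to 0.139 and -0.299 to 0.045. Ovgp1 slopes of Wnt4, Lrp6, Ctnnb1 and Sfrp2 ranged from -0.009 to 0.011, -0.011 to 0.002, -0.021 to 0.003 and -0.022 to 0.007.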
